A study of Homo sapiens with 2 samples.

Results

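The 9 genes described here, TXNIP, ARRDC4, ARRDC3, MLXIP, MLXIPL, MLX, SLC2A1, SLC2A3 and HK1, belong to glucose sensing, glucose uptake and the first step of glucose use. They were chosen by gene symbol from the 46427 gene rows of the deposited table, and all 9 had a row and passed the minimum of 50 counts in a library. RNA was sequenced from cells labelled MiaPaca2, the human pancreatic adenocarcinoma line MIA PaCa-2, after 48 hours with iMQT_020 or with vehicle. MIA PaCa-2 is known to lack the CDKN2A locus, yet the gene was at 208 TPM with iMQT_020 and 278 TPM with vehicle, which leaves the identity of the cells uncertain. The submitters describe iMQT_020 as blocking the carrier of glutamine into mitochondria. Its dose is not given in the sources used here. Each treatment was 1 library of total RNA (59139157 estimated counts with iMQT_020 and 67095283 with vehicle), so no difference has a replicate check and no p-value was computed. Any difference between the libraries other than the treatment cannot be told apart from it.

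MondoA, the product of MLXIP, and ChREBP, the product of MLXIPL, are transcription factors that respond to phosphorylated glucose inside the cell. Each binds DNA as a dimer with MLX at carbohydrate response elements, and TXNIP and ARRDC4 are the best known MondoA targets. The proteins of both targets are alpha-arrestins that restrain glucose uptake, and TXNIP also binds thioredoxin. Glutamine used in mitochondria has been described as holding TXNIP transcription down through MondoA. The comparison therefore asks how this circuit's transcripts differ between the iMQT_020 library and the vehicle library. These data hold no measure of glutamine transport.

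The start regions of TXNIP, ARRDC4 and ARRDC3 are shown because these 3 genes encode alpha-arrestins, and the first 2 are known targets of MondoA while the last had the highest ratio of the 9. The windows come from RefSeq (GRCh38.p14) and run from 250 bases before an annotated start to 50 bases from it on. The table held 16 windows for 8 of the 9 genes. Capitals mark matches to 3 motifs searched on both strands: the E-box CACGTG, the spaced element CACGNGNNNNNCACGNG as a form of the carbohydrate response element, and the forkhead core TGTTTAC. The forkhead core was added after the sequences were seen. The windows are chr1:145996530-145996829 (TXNIP, minus strand), chr15:97960453-97960752 (ARRDC4, plus strand), chr5:91383268-91383567 (the upstream ARRDC3 start, minus strand) and chr5:91380048-91380347 (the downstream ARRDC3 start, minus strand).
TXNIP: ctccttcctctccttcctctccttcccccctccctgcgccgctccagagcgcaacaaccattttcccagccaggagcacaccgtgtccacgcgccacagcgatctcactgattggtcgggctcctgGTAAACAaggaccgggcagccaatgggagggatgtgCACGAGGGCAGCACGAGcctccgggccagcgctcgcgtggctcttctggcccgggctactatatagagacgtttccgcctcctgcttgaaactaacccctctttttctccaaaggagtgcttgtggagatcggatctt
ARRDC4: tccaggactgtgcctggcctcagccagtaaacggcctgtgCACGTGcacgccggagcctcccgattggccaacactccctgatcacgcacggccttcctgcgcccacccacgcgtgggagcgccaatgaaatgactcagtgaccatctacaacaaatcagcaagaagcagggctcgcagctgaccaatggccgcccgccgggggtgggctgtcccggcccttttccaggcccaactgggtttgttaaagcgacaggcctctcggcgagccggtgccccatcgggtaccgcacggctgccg
ARRDC3 upstream start: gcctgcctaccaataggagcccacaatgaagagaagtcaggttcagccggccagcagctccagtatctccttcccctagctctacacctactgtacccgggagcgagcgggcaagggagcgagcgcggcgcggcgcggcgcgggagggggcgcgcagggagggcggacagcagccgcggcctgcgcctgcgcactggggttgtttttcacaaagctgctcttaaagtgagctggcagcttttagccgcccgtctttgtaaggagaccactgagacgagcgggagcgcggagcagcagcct
ARRDC3 downstream start: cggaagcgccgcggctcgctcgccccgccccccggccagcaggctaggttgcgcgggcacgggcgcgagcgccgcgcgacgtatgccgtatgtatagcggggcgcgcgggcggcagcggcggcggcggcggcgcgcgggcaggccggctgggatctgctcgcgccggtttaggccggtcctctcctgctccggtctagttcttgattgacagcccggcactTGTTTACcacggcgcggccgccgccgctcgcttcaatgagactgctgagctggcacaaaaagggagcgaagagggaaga

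The printed TXNIP window holds the spaced element as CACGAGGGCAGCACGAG (chromosome 1, 145996651 to 145996667), from -88 to -72 relative to the start. Of 34943 distinct windows of this length, 20 hold this motif, or 0.0572%. TXNIP also has the forkhead core on the reverse strand from -124 to -118, and the downstream ARRDC3 window has it from -29 to -23. A second TXNIP window, chr1:145995695-145995994, minus strand and not printed, has no match to any of the 3 motifs. The forkhead core stands in 3.42% of windows. The ARRDC4 window holds the E-box from -210 to -205, and the MLX window, not printed, from -50 to -45. The E-box stands in 7.23% of windows. These matches describe the sequence and say nothing of binding in these cells.

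Of the 9 genes, 7 were lower with iMQT_020 than with vehicle and 2 were higher, as log2 ratios of counts scaled by the TMM method of edgeR. ARRDC3 was at least 2-fold higher and MLXIPL at least 2-fold lower. Those rules took 2.15% of all 14805 measured genes on the higher side and 3.09% on the lower side. All 9 genes reached 1000 counts in a library, and over the 9312 genes that did so, the same shares were 0.322% and 0.956%. The median log2 ratio of the 9 genes was −0.14, against −0.025 over all measured genes, of which 7805 were below 0. The MondoA targets TXNIP and ARRDC4 lay near the middle of all genes, while the transporters SLC2A1 and SLC2A3 were both lower by a similar ratio. Intervals given for a ratio are exact 95% intervals that cover counting error only.

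**Figure D1:**
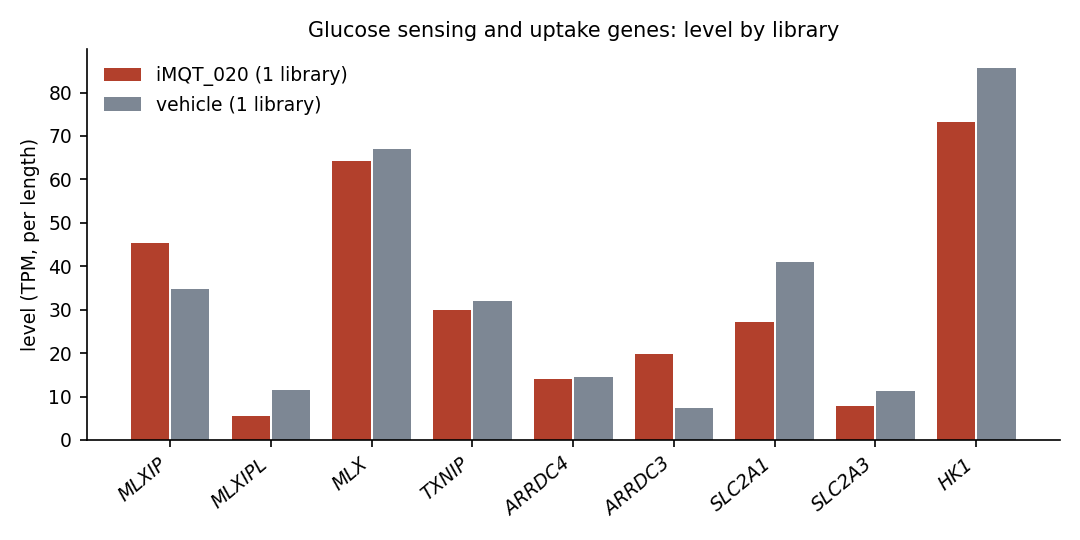
Levels of the 9 genes in TPM, a unit that corrects for transcript length, in the iMQT_020 library (left bar of each pair) and the vehicle library (right bar), 1 library each. ARRDC3 is at 19.9 TPM with iMQT_020 and 7.31 TPM with vehicle, MLXIPL is at 5.54 TPM with iMQT_020 and 11.4 TPM with vehicle, and TXNIP, ARRDC4 and MLX have bars of similar height.

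The sensor pair differed in opposite directions. MLXIP had 9665 counts with iMQT_020 and 8672 with vehicle, or 45.4 and 34.8 TPM and 18.1 and 14.3 FPKM. Its log2 ratio was 0.33 (0.29 to 0.37), a 1.26-fold higher level in the iMQT_020 library. Of all measured genes, 83.4% had a lower ratio than MLXIP.

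MLXIPL had 458 counts with iMQT_020 and 1109 with vehicle, or 5.54 and 11.4 TPM and 2.21 and 4.70 FPKM. This is a log2 ratio of −1.10 (−1.26 to −0.94), or 2.14-fold lower, and 2.36% of measured genes had a lower ratio. The plain log2 ratios of TPM and FPKM, with no constant added, were −1.05 and −1.09. The counting interval reaches to less than 2-fold, and the level was within 2-fold on log2(TPM + 1), at −0.93, and after centring on GC content and transcript length, at −0.85. MLXIPL is rich in G and C (63.3% of its canonical transcript). The summed TPM of MLXIP and MLXIPL was 50.9 with iMQT_020 and 46.2 with vehicle, of which MLXIP made up 89.1% with iMQT_020 and 75.3% with vehicle. MLXIP was thus 8.19 times as abundant as MLXIPL per length with iMQT_020, and 3.04 times with vehicle.

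MLX, the obligate partner of both sensors, had 3895 counts with iMQT_020 and 4753 with vehicle. Its levels of 64.3 and 66.9 TPM (25.6 and 27.5 FPKM) were close, with a log2 ratio of −0.11 (−0.17 to −0.050). MLX overlaps the 3' neighbour PSMC3IP on chromosome 17 (MLX from 42567100 to 42573203, PSMC3IP from 42572310 to 42577831), and the log2 ratio of their summed counts was −0.13. Without a stated strand setting, reads of the shared stretch cannot be told apart.

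The 2 known MondoA targets were nearly level between the libraries. TXNIP, on chromosome 1 from 145992435 to 145996579, had 2224 counts with iMQT_020 and 2773 with vehicle, or 29.9 and 32.1 TPM and 11.9 and 13.2 FPKM. TXNIP thus had a log2 ratio of −0.14 (−0.22 to −0.061), or 1.10-fold lower, and 37.1% of measured genes were lower still. After centring on GC content and transcript length the ratio of TXNIP was −0.23. ARRDC4, on chromosome 15 from 97960703 to 97973833, had 1467 counts with iMQT_020 and 1759 with vehicle, or 14.1 and 14.5 TPM and 5.63 and 5.97 FPKM. Its log2 ratio was −0.086 (−0.19 to 0.015), an interval that includes no difference. TXNIP was 2.12 times as abundant as ARRDC4 per length with iMQT_020 and 2.21 times with vehicle.

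**Figure D2:**
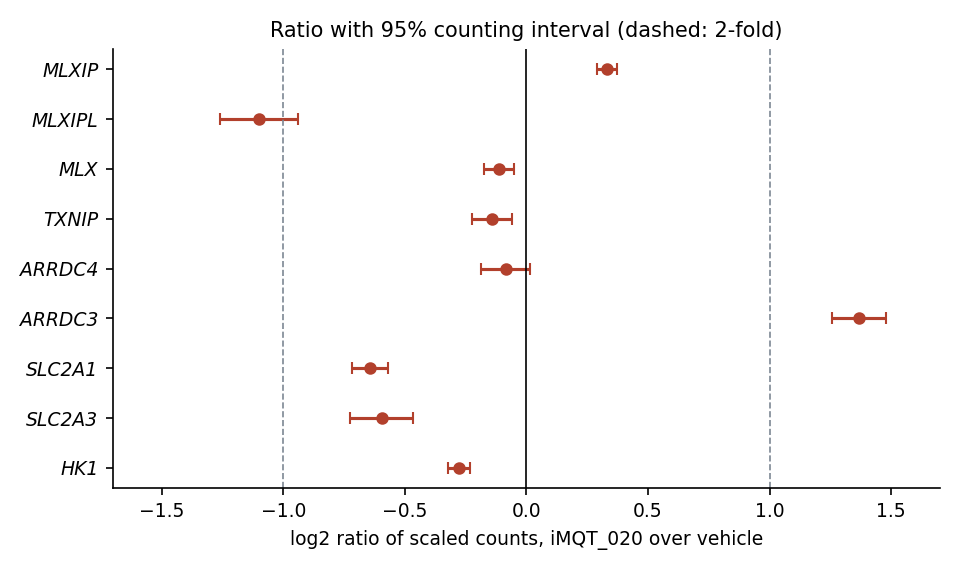
Log2 ratio of scaled counts, iMQT_020 over vehicle, for each of the 9 genes (points), with exact 95% counting intervals (bars) and dashed lines at 2-fold. ARRDC3 lies at 1.37 and MLXIPL at −1.10, SLC2A1 and SLC2A3 lie side by side at −0.64 and −0.59, and the interval of ARRDC4 alone crosses 0.

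ARRDC3 had the highest log2 ratio of the alpha-arrestins measured. Its protein is an adaptor between membrane receptors and NEDD4-type ubiquitin ligases and restrains beta-adrenergic signalling. ARRDC3 had 2201 counts with iMQT_020 and 963 with vehicle, or 19.9 and 7.31 TPM and 7.92 and 3.01 FPKM. The log2 ratio was 1.37 (1.26 to 1.48), a 2.58-fold higher level, and 99.0% of measured genes had a lower ratio. On log2(FPKM + 1) it was 1.15, and after centring on GC content (37.2% for ARRDC3) and length it was 1.19, both still above 2-fold.

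ARRDC3, on chromosome 5 from 91368631 to 91383317, overlaps the lncRNA gene ARRDC3-AS1, which runs from 91380347 to 91420715. ARRDC3-AS1 had 82 counts with iMQT_020 and 80 with vehicle, and summing both genes gave a log2 ratio of 1.31. Reads of the stretch that both genes share cannot be told apart without a stated strand setting.

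Among 6 alpha-arrestin genes, TXNIP had the highest TPM in both libraries. ARRDC3 made up 22.0% of their summed TPM with iMQT_020 and 8.97% with vehicle, and ranked 2 of the 6 with iMQT_020 and 5 with vehicle. TXNIP made up 33.1% with iMQT_020 and 39.4% with vehicle. ARRDC2 had 969 counts with iMQT_020 and 1098 with vehicle (log2 ratio −0.0040), and ARRDC1 had 586 with iMQT_020 and 748 with vehicle (−0.18). ARRDC5 had 4 counts with iMQT_020 and 2 with vehicle and was not measured. Of the 5 alpha-arrestins measured, ARRDC3 was the one at least 1.5-fold apart, with all 4 others between −0.18 and 0 from TMM-scaled counts. The direction of 2 of these depends on the scale: after centring on GC content and length, ARRDC1 was at 0.23 and ARRDC2 at 0.18, both on the higher side with ARRDC3, and ARRDC2 was also slightly higher in TPM (14.99 with iMQT_020 and 14.55 with vehicle).

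**Figure D3:**
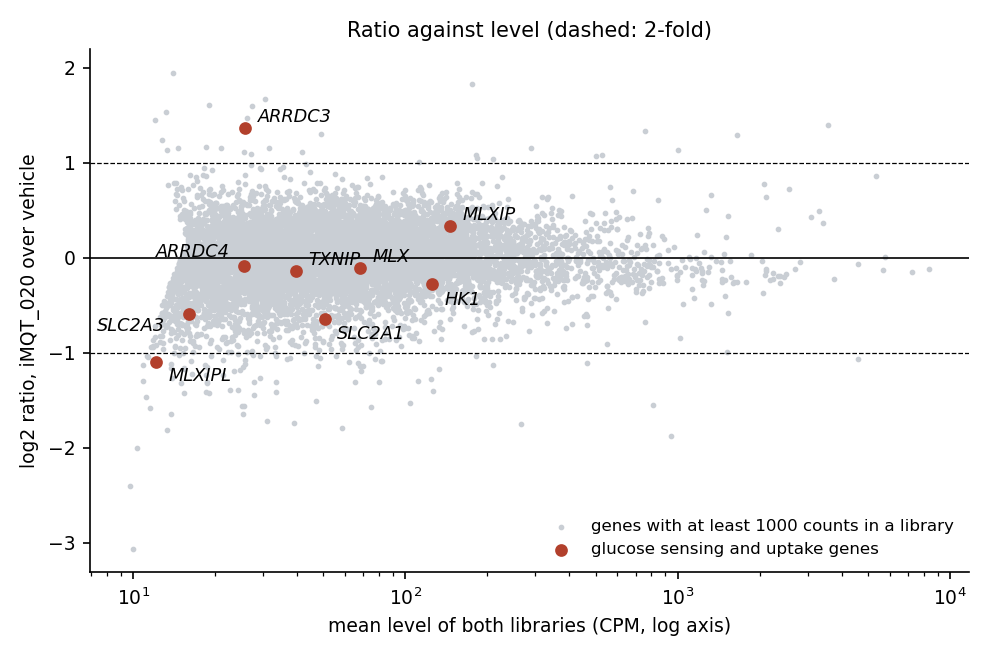
Log2 ratio, iMQT_020 over vehicle, against the mean level of both libraries in CPM on a log axis, for the 9312 genes that reached 1000 counts in a library (grey) and the 9 genes (red). ARRDC3 at 1.37 lies above the upper dashed 2-fold line, MLXIPL at −1.10 lies below the lower one, and TXNIP, ARRDC4 and MLX lie inside the dense band.

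Both transporters were lower with iMQT_020. SLC2A1, which encodes GLUT1, the transporter of basal glucose uptake in most cells, had 2341 counts with iMQT_020 and 4127 with vehicle, or 27.1 and 40.9 TPM and 10.8 and 16.8 FPKM. This is a log2 ratio of −0.64 (−0.72 to −0.57), or 1.56-fold lower, and 8.86% of measured genes were lower still. SLC2A3, which encodes the high-affinity transporter GLUT3, had 757 counts with iMQT_020 and 1292 with vehicle, or 7.74 and 11.3 TPM and 3.08 and 4.65 FPKM. SLC2A3 had a log2 ratio of −0.59 (−0.73 to −0.46), or 1.51-fold lower.

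A 1.5-fold rule thus counted 3 of the 9 genes as lower (SLC2A1, SLC2A3 and MLXIPL) and 1 as higher (ARRDC3). Over all measured genes that rule counted 10.2% as lower and 6.30% as higher, and over genes that reached 1000 counts in a library 5.42% and 2.59%. SLC2A1 was 3.50 times as abundant as SLC2A3 per length with iMQT_020 and 3.61 times with vehicle, so their proportion was close in the 2 libraries. SLC2A3 has the close paralog SLC2A14, which had 39 counts with iMQT_020 and 58 with vehicle. Reads of the pair are hard to separate, and the log2 ratio of their summed counts was −0.59.

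Across the 13 SLC2A family genes read, summed TPM was 86.3 with iMQT_020 and 117.6 with vehicle. SLC2A1 ranked first in both, with 31.4% of the sum with iMQT_020 and 34.8% with vehicle. SLC2A8, an intracellular transporter, came next at 20.4 TPM with iMQT_020 and 25.8 TPM with vehicle (log2 ratio −0.45), followed by SLC2A6 at 14.5 TPM with iMQT_020 and 22.0 TPM with vehicle (−0.62). After centring on GC content and length, SLC2A8 was at −0.11 and SLC2A6 at −0.29, both nearer to 0. SLC2A4, the insulin-responsive GLUT4, had the lowest ratio of the measured transporters. It had 124 counts with iMQT_020 and 395 with vehicle, or 1.43 and 3.92 TPM. Its log2 ratio was −1.49 (−1.80 to −1.20), and the plain log2 ratios of TPM and FPKM were −1.46 and −1.50. It was within 2-fold on log2(FPKM + 1), where the added 1 is large beside its 0.569 FPKM with iMQT_020 and 1.61 with vehicle. SLC2A11 had 249 counts with iMQT_020 and 172 with vehicle and a log2 ratio of 0.71 (0.42 to 0.999), the highest among measured transporters. SLC2A6, SLC2A11 and, in the plot of the family, SLC2A13 were chosen after their values were seen. SLC2A2, SLC2A9 and SLC2A10 had 0 counts in both libraries, under a floor of 3 counts per library.

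**Figure D4:**
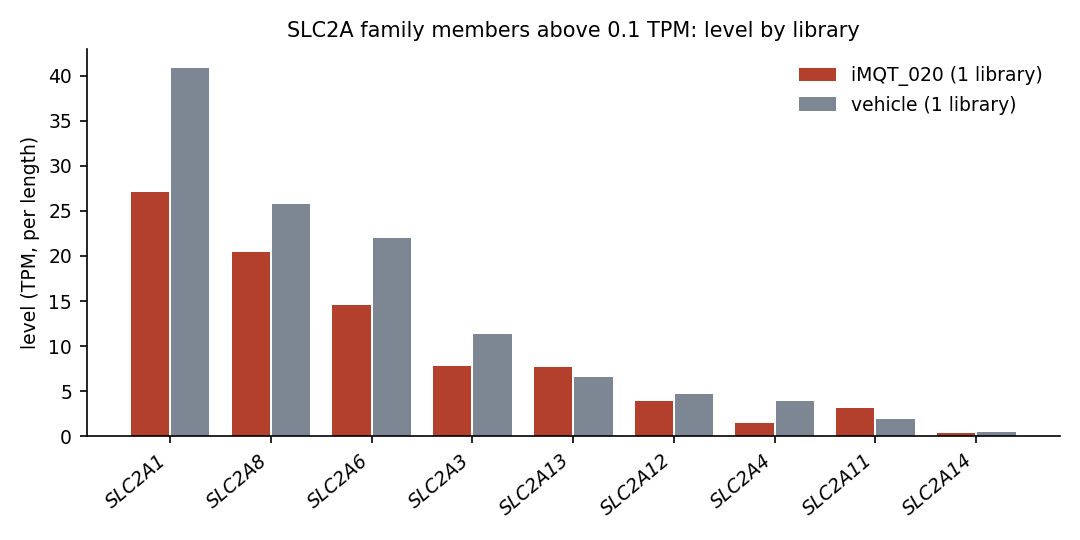
Levels in TPM of the 9 SLC2A family genes above 0.1 TPM, in the iMQT_020 library (left bar of each pair) and the vehicle library (right bar). SLC2A1 (27.1 TPM with iMQT_020 and 40.9 TPM with vehicle), SLC2A8, SLC2A6 and SLC2A3 are lower with iMQT_020. SLC2A13 (7.71 TPM with iMQT_020 and 6.58 TPM with vehicle) and SLC2A11 are higher.

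HK1, the hexokinase that phosphorylates glucose at the outer mitochondrial membrane, was the most abundant of the 9 genes in both libraries. It had 6722 counts with iMQT_020 and 9194 with vehicle, or 73.1 and 85.7 TPM and 29.1 and 35.2 FPKM. HK1 had a log2 ratio of −0.28 (−0.32 to −0.23), or 1.21-fold lower, and 24.9% of measured genes were lower still. HK2, the inducible hexokinase, had 4570 counts with iMQT_020 and 7374 with vehicle and a log2 ratio of −0.51 (−0.57 to −0.46). HK1 was 2.29 times as abundant as HK2 per length with iMQT_020 and 1.94 times with vehicle. ADPGK, which phosphorylates glucose with ADP, had 70.9 TPM with iMQT_020 and 67.1 TPM with vehicle (log2 ratio −0.031, and 0.045 after centring). HK3 and HKDC1 had at most 4 counts in a library.

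The order of the 9 genes by TPM differed in places between the libraries. With iMQT_020 it ran HK1, MLX, MLXIP, TXNIP, SLC2A1, ARRDC3, ARRDC4, SLC2A3 and MLXIPL. With vehicle it ran HK1, MLX, SLC2A1, MLXIP, TXNIP, ARRDC4, MLXIPL, SLC2A3 and ARRDC3. ARRDC3 was thus the least abundant of the 9 with vehicle and stood above ARRDC4, SLC2A3 and MLXIPL with iMQT_020. With 1 library each, neighbours in either order cannot be compared with a spread.

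Of 48 further genes of the pathway in 7 lists, 33 were measured, with 17 below 0 and 16 above, a median log2 ratio of −0.0040, 1 at least 2-fold lower (SLC2A4) and 0 at least 2-fold higher. Over all 14805 measured genes, 7805 were below 0, 3.09% were at least 2-fold lower and 2.15% at least 2-fold higher. Of the 33 genes, the number below 0 was 14 on log2(TPM + 1) and 12 after centring on GC content and length. The 7 other transporters measured, all of the SLC2A family, had a median of −0.39, with 5 below 0. That median is the ratio of SLC2A14, which had 39 counts with iMQT_020 and 58 with vehicle. Its counting interval, −1.02 to 0.21, includes 0. MLX, MNT and the MXD proteins share a network with MAX, and of its 5 genes listed beside MLX, 2 were below 0. MAX itself had 58.0 TPM with iMQT_020 and 83.6 TPM with vehicle (−0.58), and MXD3 had 483 counts with iMQT_020 and 854 with vehicle (−0.65). MXD3 is rich in G and C (65.6%), and after centring its ratio was −0.21, within 1.5-fold. MXD1, MNT and MXD4 were above 0, at 0.47 (0.35 to 0.59), 0.011 and 0.053. The counting intervals of MNT and MXD4 include 0. After centring, MXD1 was at 0.36 and MAX at −0.52.

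The thioredoxin system, whose thioredoxin is bound by TXNIP, was close to level from scaled counts, with a median of −0.052 over 6 genes. PRDX1, a peroxiredoxin, was its most abundant gene at 1884 TPM with iMQT_020 and 1920.0 TPM with vehicle (−0.072), and TXNRD1, the cytosolic thioredoxin reductase, had the largest ratio at 0.28. After centring, PRDX1 was at 0.075, TXN at 0.030 and TXN2 at 0.11, all on the higher side, and PRDX3 was at −0.039. TXNRD2, at 0.070 from scaled counts, was at 0.41 after centring, above TXNRD1 at 0.27. TXN, chosen after its values were seen, was at 1157 TPM with iMQT_020 and 1151 TPM with vehicle, or 38.7 times TXNIP per length with iMQT_020 and 35.9 times with vehicle.

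Ubiquitin ligases and AMPK subunits that act on TXNIP or the arrestin-domain proteins had 8 of 9 genes above 0 and a median of 0.077, with none 1.5-fold apart, where 7805 of all 14805 measured genes were below 0. Of those 8, WWP2, PRKAA2, PRKAB1 and PRKAG1 had counting intervals that include 0, and PRKAA2 was at −0.14 after centring. ITCH, the ligase that marks TXNIP for degradation, was at 55.9 TPM with iMQT_020 and 41.0 TPM with vehicle (0.40, 0.36 to 0.45), and its ratio was 0.18 after centring. PRKAG1, the most abundant of the list, was at 73.2 TPM with iMQT_020 and 70.2 TPM with vehicle (0.015). Of 6 carbohydrate-response genes described in liver, 2 were measured, KHK and GPD1. KHK, the fructokinase gene, had 350 counts with iMQT_020 and 635 with vehicle (−0.68). After centring KHK was at −0.48, within 1.5-fold. GPD1 had 55 counts in each library and a scaled log2 ratio of 0.17 (−0.39 to 0.74).

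**Figure D5:**
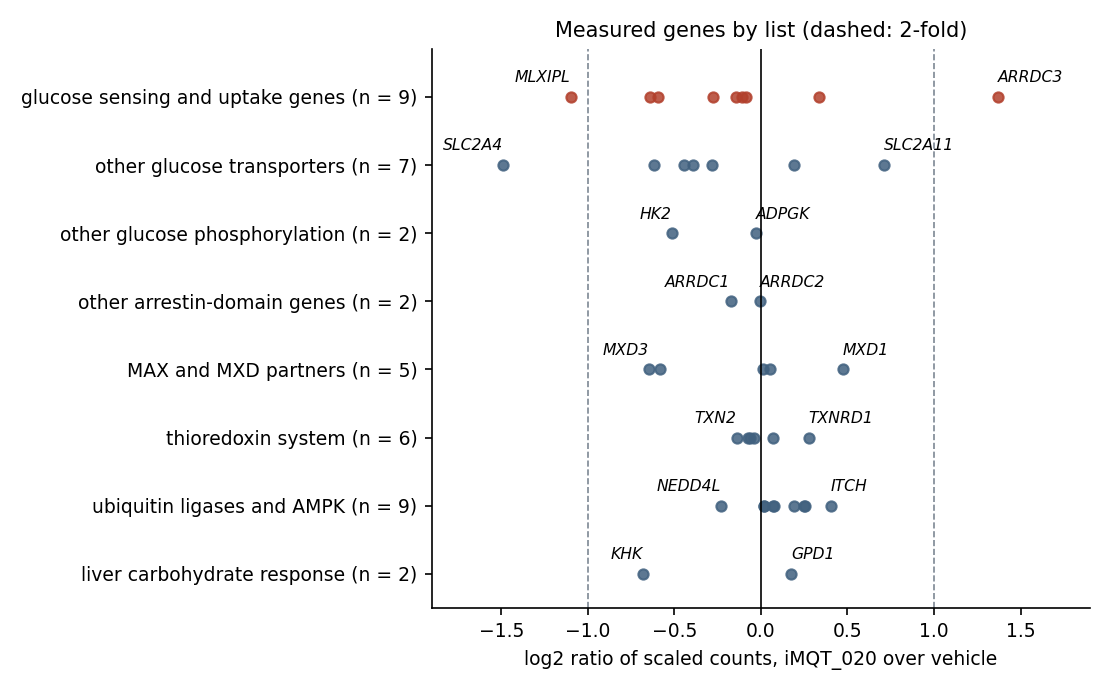
Log2 ratios, iMQT_020 over vehicle, of the 9 genes (red) and of the measured genes of 7 pathway lists (blue), 1 point per gene, with the lowest and highest gene of each list named and dashed lines at 2-fold. SLC2A4 at −1.49 is the single listed gene outside the dashed lines besides ARRDC3 and MLXIPL, and the thioredoxin genes lie between −0.14 and 0.28.

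The cells were also checked against marker lists. Of 5 genes said to be lost or abundant in MIA PaCa-2, 4 were measured, among them CDKN2A. CDKN2A, CDKN2B and MTAP stand on that list as lost, and CD44 and ANXA1 as abundant. The number measured is therefore no match to the label: the genes listed as lost were expressed, and those listed as abundant were low. CDKN2B and MTAP, near CDKN2A on chromosome 9, were at 13.5 and 26.2 TPM with iMQT_020. With vehicle they were at 8.04 and 33.7 TPM. ANXA1 had 100 counts with iMQT_020 and 132 with vehicle, or 2.74 and 3.13 TPM. CD44 had 3 counts with iMQT_020 and 16 with vehicle and was not measured. Of 6 epithelial markers 2 were measured, KRT8 and KRT18. The summed levels of the list were 169.8 TPM with iMQT_020 and 225 TPM with vehicle, and KRT7 and KRT19 had 0 counts in both libraries. EPCAM had 0 counts with iMQT_020 and 4 with vehicle, and CDH1 had 6 with iMQT_020 and 7 with vehicle. The mesenchymal markers VIM and CDH2 summed to 456 TPM with iMQT_020 and 420.5 TPM with vehicle. Of 4 fibroblast markers 1 was measured, COL1A1, with a sum of 11.3 TPM with iMQT_020 and 16.8 TPM with vehicle and COL1A2 and DCN at 0 counts. Of 4 leukocyte markers 2 were measured, with a sum of 3.12 TPM with iMQT_020 and 2.93 TPM with vehicle and PTPRC and CD3E at 0 counts. Of 3 endothelial markers 0 were measured, with a sum of 0.272 TPM with iMQT_020 and 0.0685 TPM with vehicle. The part of these differences in the ratios above was not tested. In such bulk samples, fewer cells of a type and less RNA per cell cannot be told apart.

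The log2 ratio varied with transcript sequence over all measured genes with a canonical transcript. Its median was −0.31 in the highest of 10 bins of GC content and 0.13 in the lowest, and 0.17 in the longest of 10 length bins and −0.20 in the shortest. With the ratio centred in joint bins, SLC2A1 was at −0.60, SLC2A3 at −0.61, HK1 at −0.23, MLXIP at 0.30, ARRDC4 at −0.13 and MLX at −0.035. All 9 genes kept the sign of their ratio.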

How the data were processed

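RNA-seq of 1 iMQT_020 and 1 vehicle library was used. Per the labels' protocols, the authors mapped reads with HISAT2 and Bowtie2 on GRCh38. The submitters' processing notes also list StringTie and edgeR, with neither a version nor a role. How reads were counted, on which strand and at what length is not given in the sources used here. The deposited estimated counts are whole numbers that sum all transcripts of a gene. FPKM values, deposited beside them, are scaled by transcript length and depth, and TPM values deposited by the authors are scaled so that each library sums to one common total. A shorter deposited table repeats the FPKM of 20787 genes (equal within 1e-05). Columns were assigned by name, and 0 were left over.

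Counts were scaled by TMM in edgeR 4.0.16 under R 4.3.3 (factor 0.998 for vehicle and, rounded, 1 for iMQT_020). Genes counted as measured had 50 counts or more in a library. Log2 ratios used a prior count of 0.5. Exact Clopper-Pearson 95% intervals treat estimates as whole reads and cover counting error only. Calls are by a 2-fold rule, with 1.5-fold beside it. The calculation was tested on simulated data with 200 changed genes. Those data held counting error only, with no variation between cultures and no added trend with GC content or length. They therefore cannot show how the calls fare under either. Alternatives were the scaling (DESeq2 1.42.0 median of ratios, total counts, upper quartile, TMM without mitochondrial and rRNA genes), minimum counts, prior count, deposited FPKM and TPM on a log2 scale with a pseudocount, and centring on GC content and length from GENCODE canonical transcripts (95.6% of measured genes). Positions and promoters came from RefSeq, GRCh38.p14, matched by gene ID. Python 3.11.15 was used with numpy 2.4.6, pandas 2.3.3, scipy 1.17.1 and matplotlib 3.10.9.

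The 9 genes and the lists were chosen with earlier results of these data known. All 9 are named. Of each list the most abundant gene, the gene with the largest ratio and any gene past 2-fold are named, with genes overlapping a member. Further list genes are named where their values complete a list or show a limit. The 2 libraries give 1 difference per gene, so no gene was named for a pattern like another's. Of the 48 list genes, 47 matched by symbol and G6PC1 by gene ID.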

Additional observations from a re-analysis of the deposited data

How the results depend on the processing

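No paired analysis was possible because each treatment has 1 library. Of 202 values recomputed under the alternatives, 182 stayed within the counting interval or within 1.5 times the count, 20 moved and none of the ratios of the 9 genes changed sign. Some of these values could not move. A minimum on counts does not enter the ratio of a single gene, and all 9 genes passed every minimum tried. The median of the 9 genes was the ratio of TXNIP throughout, so it repeats the values of TXNIP. The 182 therefore overstates how stable the results were. The number of the 9 genes at least 2-fold lower was 1, and it was 0 on log2(TPM + 1), on log2(FPKM + 1) and after centring on GC content and length, and 3 under a 1.5-fold rule. MLXIPL was at −0.93, −0.83 and −0.85 under the first 3 of these. The ratio of ARRDC3 was 1.15 on log2(FPKM + 1) and 1.19 after centring, that of MLXIP 0.38 on log2(TPM + 0.1), and that of HK1 −0.23 with TPM under both pseudocounts. Centring also gave −0.23 for TXNIP, which was then the median of the 9 genes, and −0.035 for MLX. Of the pathway genes, 2 were at least 2-fold lower and 5 higher with no minimum on counts, all but SLC2A4 having under 10 counts in each library. The number below 0 was 17, and it ran from 12 (centred) to 18 over the alternatives. A 1.5-fold rule gave 4 lower and 1 higher, and log2(FPKM + 1) gave 0 lower. The plain log2 ratios of TPM, with no constant added, were already −0.23 for HK1 and 0.38 for MLXIP. Those of FPKM were −0.27 and 0.34, close to the ratios from counts. In each of the 9 genes the TPM ratio stood above the FPKM ratio by a like amount, so that shift is not particular to HK1 and MLXIP. Why ratios moved was not tested. The minimum of 1000 counts and the sums of ARRDC3 with ARRDC3-AS1 and of MLX with PSMC3IP were chosen after seeing the data. Depth limits MLXIPL most, with 458 counts in the iMQT_020 library.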

Other observations

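The transcript length that the deposited FPKM implies, counts divided by FPKM and by the summed counts of the library, gives a view of the isoforms that the ratios do not use. For SLC2A1, SLC2A3 and ARRDC4, each with 1 transcript in the deposited annotation, the implied length with iMQT_020 was 0.321% to 0.352% above that with vehicle, an offset shared by genes of 1 transcript (median 0.335% over 1434 genes that reached 1000 counts in a library). For the 6 genes with several transcripts the difference ran from −1.58% to 0.803%. ARRDC3, with 7 transcripts, was at the low end, with 4698 bases implied with iMQT_020 and 4773 with vehicle. TXNIP, with 3 transcripts, was at the high end, with 3157 bases with iMQT_020 and 3132 with vehicle. Over 7878 genes with several transcripts the central 95% ran from −8.39% to 9.30%, so none of the 9 genes stood outside the range of other genes. HK1, with 13 transcripts, had 3904 bases with iMQT_020 and 3891 with vehicle, and MLXIPL, with 12, had 3511 with iMQT_020 and 3516 with vehicle. A gene's own ratio in counts and in FPKM therefore differed little, as with ARRDC3 at 1.37 from counts and 1.40 as the plain log2 ratio of FPKM.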
